A study of Rattus with 9 samples.

Results

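Ogn and Gpc3 fibroblasts of the rat bile duct were cells with fibroblast collagen genes in which the summed UMIs of Ogn and Gpc3 led those of the other fibroblast gene sums. A UMI tags 1 captured RNA molecule. A barcode counted as a fibroblast when it held at least 3 of Col1a1, Col3a1, Dcn, Lum and Dpt, at least 3 UMIs of Col3a1, and no UMI of the leukocyte gene Ptprc, the epithelial gene Epcam, the endothelial gene Cdh5 or the smooth muscle gene Myh11. It was a member when Ogn and Gpc3 together had at least 2 UMIs and more UMIs than Ptx3 and Srpx together and than Mfap5, Htra3 and Cthrc1 together. The members were thus chosen by their measured UMIs of these genes. By this rule 6541 of 17052 fibroblasts were members, among 150284 cells in the whole series. The leading sum was Ptx3 and Srpx in 4640 other fibroblasts and Mfap5, Htra3 and Cthrc1 in 4819. There were 159 members with exactly 2 UMIs of Ogn and Gpc3, and 105 fibroblasts fell just outside with 1 UMI that exceeded both other sums.

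Bile ducts of Sprague-Dawley rats of both sexes, aged 6 to 8 weeks, were digested and profiled by droplet scRNA-seq. The sham group had 3 samples of 1 library each. The LT group received liver grafts that had undergone 30 min of warm ischemia, and were sampled once on day 1, once on day 3 and once on day 7, with 3 libraries per sample. The raised flow group received the same grafts, and in addition had the splenic and gastroduodenal arteries ligated so that more arterial blood reached the liver. It was sampled on the same 3 days, with 8 libraries analysed here. Each day of an arm was therefore a single sample, and the labels do not say whether its libraries came from separate rats. The p-values thus measure the spread between samples only, and none measures the spread between transplanted rats of the same day and arm. In the gene tests a gene's own residual spread came from the sham samples and from differences between the arms that varied by day. In the share tests without pairing, the days of an arm stood as its replicates. Cells were freed by enzymes and dead cells were removed, so the recovered shares of cell types also depend on that step.

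Fibroblasts of the duct wall make the collagen-rich coat around the biliary epithelium and its vessels. Ogn encodes osteoglycin, a small leucine-rich proteoglycan of the matrix. Gpc3 encodes glypican-3, a heparan sulfate proteoglycan held at the cell surface that binds growth factors, Wnt proteins and Hedgehog proteins. Fibroblasts of vessel and duct adventitia that carry Pi16 or Cd34 are often called universal fibroblasts, and after injury fibroblasts can take on inflammatory, antigen-presenting or contractile programs.

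The sequencing depth was 21270647 to 290590249 UMIs per sample, empty barcodes included. The overlap of cell barcodes between a pair of libraries was at most 0.395% within a sample and 1.19% across all samples. In 2 of the 3 LT day 3 libraries the limit on hemoglobin UMIs removed 2472 of 2914 and 3961 of 4307 barcodes, and 41 of the 43 LT day 3 members came from the remaining library.

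The members carried fibroblast RNA in every sample. Of 2 genes that the rule used, Col3a1 had 4719 to 30575 CPM (UMIs scaled to a common total) in their summed UMIs, and Dcn had 1902 to 18971 CPM. Pdgfra, a fibroblast receptor that the rule did not use, had 283 to 490 CPM. The summed level of the 12 endothelial markers was 13.8 to 59.3 CPM and that of the 12 T, NK and B cell markers was 0 to 59.4 CPM. The 12 smooth muscle and mural markers summed to 505 to 844 CPM with Myh11 at 0 by the rule. Over all cells they summed to 172 to 213 CPM in LT and 150 to 280 CPM in raised flow, below the members. In sham they summed to 574 to 810 CPM in members and 299 to 804 CPM over all cells. The 12 biliary epithelial markers summed to 91.2 to 259 CPM in members and the 13 hepatocyte and pancreas markers to 48.8 to 372 CPM. The 7 Schwann and neural markers summed to 14.9 to 79.9 CPM. The 12 macrophage and monocyte markers summed to 148 to 310 CPM in sham, 83.7 to 826 CPM in LT and 97.3 to 873 CPM in raised flow, with the highest values at day 7. The 11 neutrophil markers summed to 26.0 to 40.4 CPM in sham, 66.3 to 490 CPM in LT and 98.0 to 526 CPM in raised flow. Free RNA of the droplets, estimated from marker genes of other cells, made up 3.74% to 4.30% of the members' UMIs in sham, 0.511% to 3.48% in LT and 1.69% to 7.57% in raised flow.

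A further check concerned mesothelium, the outer lining of the duct, whose genes Msln, Upk1b, Upk3b and Lrrn4 the rule did not exclude. At least 1 UMI of these genes was found in 2 of 54, 13 of 1703 and 31 of 3629 sham members. The same held for 0 of 24, 4 of 43 and 15 of 50 LT members at days 1, 3 and 7, and for 10 of 763, 11 of 213 and 12 of 62 raised flow members. The 30% at LT day 7 and the 19.4% at raised flow day 7 exceeded the 1.03% to 2.48% seen in cells with Ptprc and no Col3a1, whose median depth was 2845 to 4581 UMIs against 5185 to 10736 in members. Part of the day 7 members thus held UMIs of these genes, and the fibroblast label may describe them less cleanly than the sham members. At day 7 Msln had 1002 CPM in LT and 179 CPM in raised flow, and Upk1b had 87.8 and 22.7 CPM. Upk3b had 22.8 and 0 CPM, and Lrrn4 had 0 and 4.12 CPM. Whether these members were mesothelial cells was not tested.

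Members made up most fibroblasts in sham and a minority after LT. There were 54, 1703 and 3629 members in the sham samples, 24, 43 and 50 in LT at days 1, 3 and 7, and 763, 213 and 62 in raised flow. As a share of fibroblasts this was 69.2%, 53.2% and 74.8% in sham. The share was 7.95%, 10.6% and 4.76% in LT at days 1, 3 and 7, with 95% Wilson intervals of 5.40% to 11.6%, 7.94% to 13.9% and 3.63% to 6.22% that cover counting error only. It was 14.3%, 22% and 7.18% in raised flow. The sham samples lay above all transplant samples, and at each day the raised flow sample lay above the LT sample. Libraries of a sample differed, and LT day 1 members made up 5 of 176, 3 of 29 and 16 of 97 fibroblasts in its 3 libraries. The LT day 1 share was 15.1% without the first of them, above raised flow day 1, and 3.90% without the third. The LT day 3 share was 4.76% without its first library. Raised flow day 1 members made up 13 of 800, 390 of 1831 and 360 of 2702 fibroblasts in its 3 libraries. The raised flow day 1 share was 16.5% without the first of these and 10.7% without the second.

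**Figure D1:**
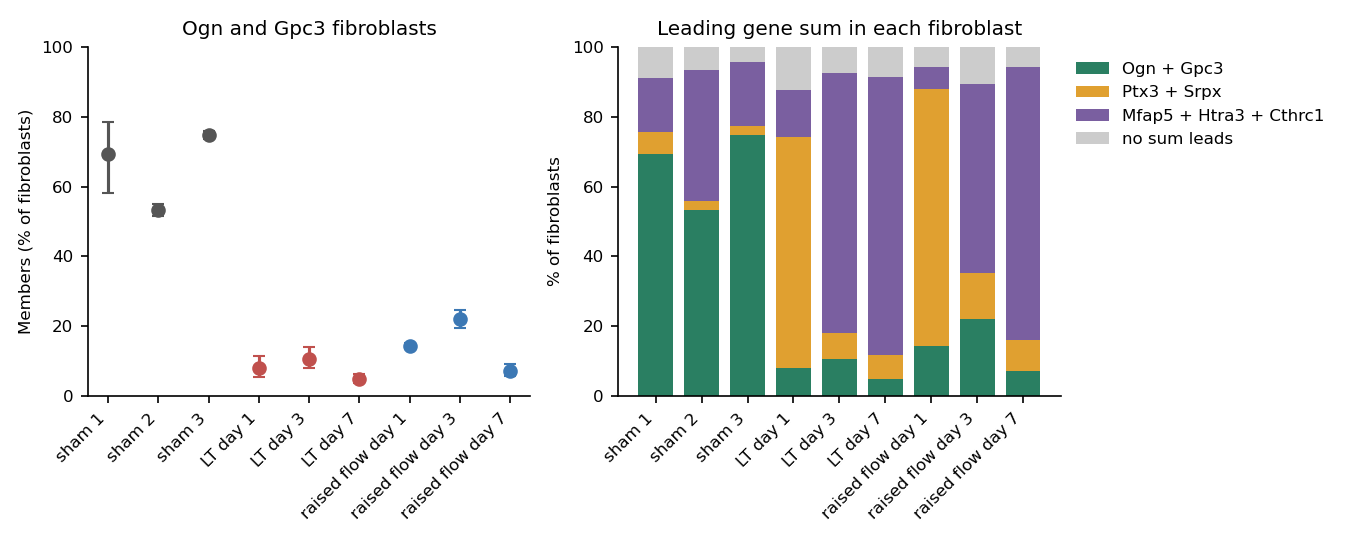
Left: members as a percent of fibroblasts in each of the 9 samples, with 95% Wilson intervals (sham gray, LT red, raised flow blue). Right: percent of fibroblasts by the gene sum that led, stacked to 100. Members led in the 3 sham samples (53.2% to 74.8%), the Ptx3 and Srpx sum led on day 1 of both transplant arms, and the Mfap5, Htra3 and Cthrc1 sum led on days 3 and 7.

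The mean share was 65.8% ± 11.2 (SD, n = 3) in sham, 7.76% ± 2.91 (SD, n = 3) in LT and 14.5% ± 7.40 (SD, n = 3) in raised flow. The LT mean was 58.0 percentage points below sham, and a two-sided exact permutation test gave p = 0.1, the smallest p that 3 against 3 samples allow (0.15 after Benjamini-Hochberg adjustment over the 3 comparisons between groups). The raised flow mean was 6.73 points above LT, with overlapping values, and an exact permutation test without regard to day gave p = 0.3 (adjusted 0.3). Within days the difference was 6.36, 11.4 and 2.43 points at days 1, 3 and 7, and an exact permutation test paired by day gave p = 0.25, the smallest p that 3 pairs allow. Members had fewer UMIs in sham (medians of 5185 to 6065) than in LT (6903 to 10736). With each fibroblast thinned to 2000 UMIs, which left out 2.62% to 14.1% of them, the mean shares were 62.2%, 7.05% and 11.9%.

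The lower share had several parts. Fibroblasts with no UMI of Ogn or Gpc3 made up 1.79% to 4.47% of fibroblasts in sham, 16.2% to 25.9% in LT and 5.98% to 14.5% in raised flow. Fibroblasts with at least 2 such UMIs that were outranked by another sum made up 21.5% to 38.4% in sham, 58.9% to 67.1% in LT and 63.4% to 74.2% in raised flow. These counts used all UMIs, and other fibroblasts had medians of 9049 to 20791 UMIs in LT and 6426.5 to 9595 in sham. At the equal depth used above, the Ogn and Gpc3 sum averaged 6.21 UMIs in sham and 1.13 in LT, without overlap. The Ptx3 and Srpx sum averaged 1.94 and 2.61, and the Mfap5, Htra3 and Cthrc1 sum 3.29 and 4.51, both with overlap. By day, the former was above sham at LT day 1 (5.33) and the latter at LT days 3 and 7 (5.08 and 7.30). Libraries differed here too. The former was 8.08, 1.52 and 1.55 in the libraries of LT day 1, against 1.42 to 2.93 in sham, so only the first was above sham. The latter was 10, 2.94 and 6.44 in those of LT day 7, against 2.69 to 3.78 in sham, so the second lay within sham. At day 1 the leading sum was Ptx3, an acute-phase pentraxin, with Srpx in 66.2% of LT and 73.6% of raised flow fibroblasts, against 2.45% to 6.41% in sham. In the LT day 1 libraries it led in 143 of 176, 7 of 29 and 50 of 97 fibroblasts. At day 7 the sum of Mfap5, Htra3 and Cthrc1 led in 79.5% and 78.1%.

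Most members carried both defining genes. Of all members 6133 had UMIs of Ogn and of Gpc3, 175 had Ogn alone and 233 had Gpc3 alone. Gpc3 alone was found in 33.3% of the 24 members of LT day 1, 16% of the 50 of LT day 7 and 14.7% of the 763 of raised flow day 1, and in at most 6.57% elsewhere. All 8 Gpc3-only members of LT day 1 came from 1 library, and the other 2 libraries had 0 of 8. Ogn alone was found in 26% of LT day 7 members, 10 of 13 of them from 1 library, and without that library in 10.3%. The level of Ogn was 2558, 2190 and 1973 CPM in sham members. It was 157, 1242 and 731 CPM in LT members and 331, 798 and 991 CPM in raised flow members. Gpc3 stood at 1830, 1520 and 1454 CPM in sham, 635, 1021 and 621 CPM in LT and 658, 964 and 666 CPM in raised flow. Every transplant sample was below every sham sample for both genes, and day 1 was the lowest day for Ogn in both arms. The day 1 members of both arms had less Ogn than the sham fibroblasts led by another sum, at 417 to 911 CPM. The median LT day 1 member held 1 UMI of Ogn and 7 of Gpc3. These levels are descriptions without a test, because both genes chose the members.

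Within the 2 sham samples that held enough cells of each kind, members with Ogn alone had higher levels of Lpl, lipoprotein lipase, than members with Gpc3 alone (medians of 648 against 30.9 CPM). Ogn-only members were also higher in the chemokine genes Ccl11 (156 against 2.21 CPM), Ccl7 (314 against 19.9 CPM) and Ccl21 (690 against 8.83 CPM), and in Igfbp3 (543 against 33.1 CPM). They were lower in Has1, a hyaluronan synthase (16.3 against 79.5 CPM), and Colec11, a collectin (0 against 35.3 CPM). The 2 samples differed, with log2 ratios of 1.055 and 5.64 for Ccl21 and of 1.26 and 5.36 for Igfbp3. Of 23802 genes 469 were higher and 201 lower in both samples by a median log2 ratio of at least 1. These sets were small, and the values carry no test.

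The same sample served as its own reference when members were set beside its other fibroblasts. Both were summed over the libraries of a sample, which held them in unequal parts. At LT day 1 the first library held 5 of the 24 members and 176 of the 302 fibroblasts. The part of library differences in these ratios, and in those against each other kind of fibroblast, was not tested. Since all genes of the cells that the rule sorted count as used, these ratios are a description. Of 23802 genes outside the rule, 20 (0.084%) were higher and 12 (0.0504%) lower by a median log2 ratio of at least 1 and in all 9 samples, on the scale of CPM + 10. Among the higher genes were those of matrix and adhesion, namely Col4a5, a basement membrane collagen chain (log2 ratio 1.82, range 0.46 to 2.11), and the integrin gene Itga8 (1.34, range 0.09 to 2.43). Signaling genes with higher levels were Ramp1, a coreceptor for CGRP (1.81, range 0.88 to 2.50), the ERBB ligand gene Nrg1 (1.66), Wnt5a (1.21) and Gpbar1, the cell surface bile acid receptor (1.13, range 0.62 to 1.85). Gpbar1 had a median of 71.7 CPM in members and 23.8 CPM in other fibroblasts. Apoe, which carries lipid, stood at 3102 against 919 CPM, and Gsta1, a glutathione transferase, at 1331 against 291 CPM. Igfbp5, Septin4, Cd200, Cst3, Qpct and Cdh3 were also among the 15 highest.

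Fbln2, Postn, Col5a3 and Tnfaip6 were among the genes lower in members than in the other fibroblasts, part of which the rule sorted by the matrix genes Mfap5, Htra3 and Cthrc1. Fbln2, a fibulin, had a log2 ratio of -2.32 (range -3.21 to -1.49) and stood at 27.9 against 146 CPM. Postn, or periostin, had -1.61 (range -2.10 to -0.38) and Col5a3 had -1.61. Tnfaip6, which remodels hyaluronan, had -1.55 and stood at 299 against 903 CPM. The remaining lowest genes were LOC100911932, Tfpi2, Tubb3, Uap1, Cks2 and Fabp5.

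**Figure D2:**
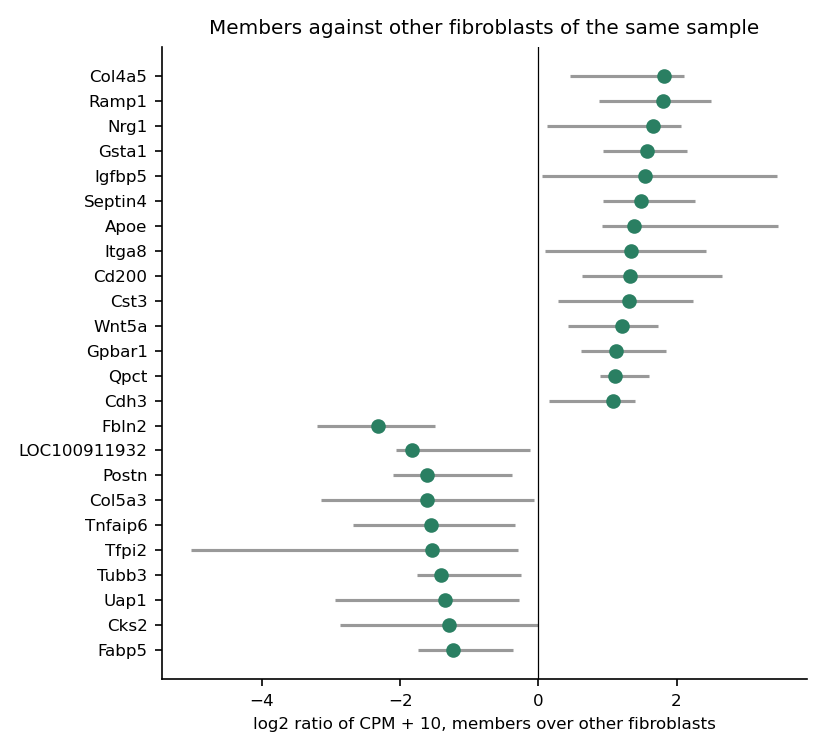
Median log2 ratio of CPM + 10 between members and the other fibroblasts of the same sample for genes among the 15 highest and for the 10 lowest outside the rule; lines give the lowest and highest of the 9 samples. Every line stays on its own side of 0, from Fbln2 at -2.32 to Col4a5 at 1.82.

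Members were also set beside each of the 2 other kinds of fibroblast, by medians over the 8 samples with at least 20 cells of each kind. Ramp1, Septin4, Gsta1, Apoe, Itga8 and Gpbar1 were higher in members than in either kind in all 8 samples. Against the Ptx3 and Srpx fibroblasts, members were lower in the genes of the monocyte chemokines Ccl7 (276 against 1567 CPM) and Ccl2 (1180 against 3815 CPM), the neutrophil chemokine Cxcl1 (589 against 2183 CPM), Il6 (57.6 against 213 CPM) and the alarmin Il33 (87.7 against 331 CPM). They were higher in Pi16 (131 against 54.0 CPM). Against the Mfap5, Htra3 and Cthrc1 fibroblasts, members were higher in Igfbp5 (570 against 113 CPM) and in Inmt, an amine methyltransferase (223 against 22.4 CPM). They were lower in Il33 (87.7 against 309 CPM), S100a4 (67.8 against 342 CPM), Cd55 (3.31 against 40.6 CPM) and Postn (120 against 401.4 CPM). Whether the 2 sets of ratios differ was not tested.

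Members were next compared between LT and sham. A far smaller share of fibroblasts met the rule in LT. Changes within cells and changes in which cells met the rule therefore cannot be told apart here. Their UMIs were summed per sample and fitted with edgeR's quasi-likelihood test over all 9 samples, with terms for day and for arm. Each LT-against-sham fold change is thus the mean over days 1, 3 and 7, and the raised flow samples inform it. Among 5355 genes tested outside the rule, 89 rose (1.66%) and 91 fell (1.70%) in LT at an adjusted p under 0.05, and 1120 had an unadjusted p under 0.05. In the sentences that follow, values in CPM are given for the 3 sham samples and then for LT at days 1, 3 and 7, scaled by TMM, and fold changes are on the log2 scale with standard errors. In the small LT samples and in sham 1, a level of a few CPM rests on very few UMIs.

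Sod2, Lcn2, Mgst1 and Mt2A rose, and Gpx3 fell. Sod2, the mitochondrial superoxide dismutase, had 209, 156 and 144 CPM in sham and 3066, 500 and 998 CPM in LT (log2 fold change 2.85 ± 0.37, edgeR adjusted p = 0.0078). All LT samples were above all sham samples, and the raised flow samples, at 2590, 889 and 427 CPM, were also above sham. Lcn2, an iron-sequestering lipocalin, had 3.07, 6.33 and 6.21 CPM in sham and 294, 287 and 553 CPM in LT (6.27 ± 1.05, edgeR adjusted p = 0.032). A single cell supplied 28.6%, 56.1% and 22.9% of the LT Lcn2 UMIs, and with free RNA subtracted the fitted log2 fold change was larger, at 14.12, and not called (edgeR adjusted p = 0.066). Mgst1, a microsomal glutathione transferase, had 36.9, 8.62 and 7.88 CPM in sham and 180, 148 and 289 CPM in LT (4.26 ± 0.47, edgeR adjusted p = 0.00588), again without overlap. The metallothionein gene Mt2A rose by 3.19, while Gpx3, the secreted glutathione peroxidase, fell from 2140 to 3557 CPM in sham to 474 to 1014 CPM in LT. In the list of selenoprotein and antioxidant genes, 2 of 22 tested genes rose and 1 fell, with a median log2 fold change of -0.04 against -0.01 over all genes. Over all genes tested 1.66% rose and 1.70% fell.

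Several genes of universal fibroblasts fell. Pi16, a peptidase inhibitor gene used as a marker of these cells, had 746, 578 and 458 CPM in sham and 138, 141 and 26.0 CPM in LT (-2.80 ± 0.32, edgeR adjusted p = 0.00588). Cd34 had 58.4, 68.9 and 71.8 CPM in sham and 7.65, 24.3 and 9.76 CPM in LT (-2.19 ± 0.37, edgeR adjusted p = 0.020), and the transcription factor gene Twist2 fell by 1.42. For Pi16 and Cd34 all sham samples were above all samples of both transplant arms. Of 29 tested genes in this list 3 fell and none rose, against 1.70% and 1.66% of all genes tested, and the median was -0.53. The summed level of the list was 9338 to 26230 CPM in sham and 41880, 13320 and 9731 CPM in LT. At LT day 1 this sum was thus above sham. Sparcl1, a matricellular gene related to Sparc, also fell, from 633 to 1045 CPM to 52.0 to 183 CPM (-2.77 ± 0.35). Vipr2, a receptor for vasoactive intestinal peptide, was covered by 3 UMIs in LT against 658 in sham, a ratio of 0.133 with a counting interval of 0.0273 to 0.390. Stmn4, Tekt3, Tppp3, Hr, Sult5a1, LOC108348172 and AABR07072853.5 were the other genes among the 10 lowest, with log2 fold changes from -2.70 to -4.25.

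**Figure D3:**
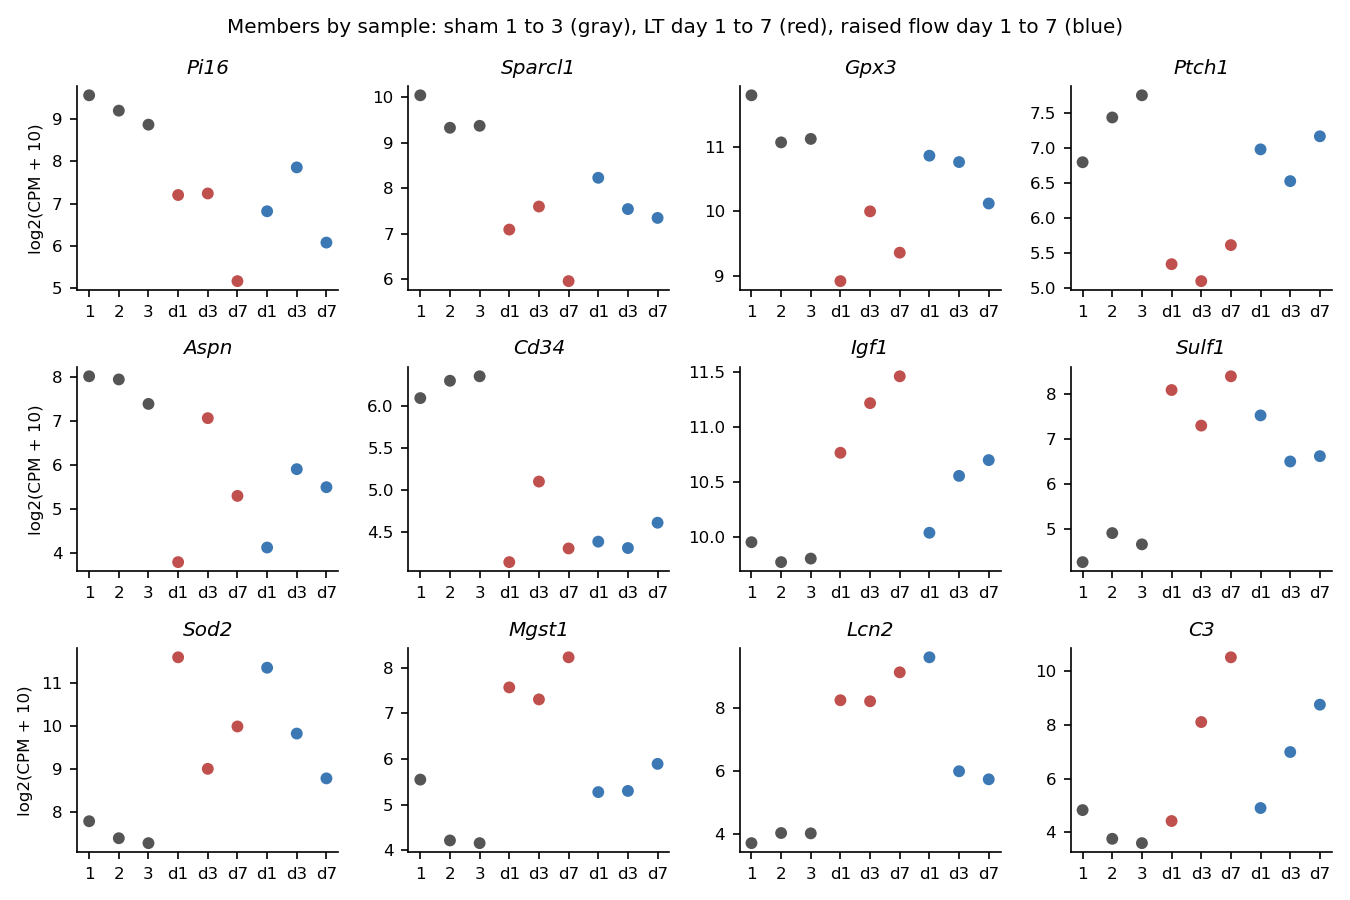
Levels of 12 genes in the summed UMIs of members, one point per sample, as log2(CPM + 10) on axes that differ between genes. Pi16, Sparcl1, Cd34 and Gpx3 were highest in the 3 sham samples, Mgst1 separated LT from raised flow, and C3 at LT day 1 lay within the sham values.

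Matrix genes were called in both directions. Of all genes tested 1.66% rose and 1.70% fell. Calls went to 1 of 14 basement membrane genes (higher), 1 of 3 small leucine-rich proteoglycans, 1 of 17 elastic fiber genes and 2 of 14 metalloproteinases and inhibitors (all lower). Among fibrillar collagens none of 6 tested genes passed, with 5 of 6 values negative and a median of -0.85. Col4a1, a basement membrane collagen chain, rose from 160 to 236 CPM in sham to 360 to 528 CPM in LT (1.20 ± 0.26, edgeR adjusted p = 0.041). Aspn, a small leucine-rich proteoglycan like Ogn, had 249, 236 and 157 CPM in sham and 3.82, 124 and 29.3 CPM in LT (-2.63 ± 0.38, edgeR adjusted p = 0.011). Ltbp4, a latent TGF-beta binding protein gene, fell by 1.57, Adamts2, which trims procollagen, by 1.41, and Reck, an inhibitor of metalloproteinases, by 1.43. In the list of myofibroblast activation 3 of 23 tested genes rose and 1 fell. Its risers were the fibronectin receptor gene Itga5 (1.71), the collagen lysyl hydroxylase gene Plod2 (1.33) and Pdpn, or podoplanin (1.32), and P4ha2, a collagen prolyl hydroxylase gene, fell by 0.98. The contractile gene Acta2 (1.00 ± 0.35) and Postn (0.59 ± 0.44) did not pass, and Pdgfra was at 0.03 ± 0.18. None of 21 genes of TGF-beta signaling passed.

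Genes of heparan sulfate, growth factor, Wnt and Hedgehog signaling were called in both directions. Sulf1, which removes sulfate from heparan sulfate, had 9.22, 20.1 and 15.3 CPM in sham and 264, 148 and 328 CPM in LT (3.83 ± 0.32, edgeR adjusted p = 0.00299). No sham value came near an LT value, and the raised flow samples, at 175, 80.9 and 88.7 CPM, also lay above sham. The syndecan genes Sdc1 (1.88) and Sdc4 (1.45) rose. Without the members that held mesothelial UMIs they were at 0.90 (edgeR adjusted p = 0.37) and 0.77 (edgeR adjusted p = 0.31), so both calls were lost. Igf1, insulin-like growth factor 1, had 983, 866 and 886 CPM in sham and 1732, 2369 and 2807 CPM in LT (1.31 ± 0.16, edgeR adjusted p = 0.00588). Ptch1, the Hedgehog receptor and target, had 101, 164 and 206 CPM in sham and 30.6, 24.3 and 39.0 CPM in LT (-2.39 ± 0.31, edgeR adjusted p = 0.00722). The Wnt enhancer gene Rspo1 rose by 3.19, with LT day 1 within the sham values, and Wnt4 rose by 2.27. Of 22 tested genes of BMP, Wnt and Hedgehog signaling 2 rose and 1 fell, and of 13 in the IGF and glypican list 3 rose. Of all genes tested 1.66% rose and 1.70% fell. Of 15 tested genes in the list of growth factors and receptors 1 rose and 2 fell. Vegfd rose by 4.01, and Hgf, the hepatocyte growth factor gene, and Pdgfrl fell by 1.61 and 1.83.

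Of 12 tested complement genes 4 rose, and of 15 tested chemokine genes 1 rose and 1 fell. Of all genes tested 1.66% rose and 1.70% fell. The complement values were 6 positive and 6 negative, with a median log2 fold change of 0.27. The summed level of the complement list was 3630 to 9121 CPM in sham and 2764, 6626 and 10710 CPM in LT. C3, the central complement component, had 18.4, 3.6 and 2.17 CPM in sham and 11.5, 263 and 1431 CPM in LT (5.95 ± 0.71, edgeR adjusted p = 0.00822), so the day 1 value lay within sham. Cfb, C6 and Clu rose by 5.78, 4.03 and 2.32, also with overlapping samples. C6 had 0, 68.5 and 241 CPM in LT at days 1, 3 and 7, and the mesothelial gene Msln had 0, 431 and 1002 CPM, against 3.07 to 19.2 CPM in sham. Ccl11, the eosinophil chemokine eotaxin, had 3.07, 26.3 and 24.3 CPM in sham and 111, 389 and 192 CPM in LT (3.18 ± 0.43, edgeR adjusted p = 0.010). Cx3cl1 fell by 2.38, and Osmr, the oncostatin M receptor gene, rose by 1.67 with overlapping samples. Il6 (1.63 ± 0.41, edgeR adjusted p = 0.076), Ccl2 (0.43 ± 0.45) and Cxcl12 (0.03 ± 0.22) did not pass. Timp1, a metalloproteinase inhibitor, reached 22700 CPM at LT day 1 in all 24 members against 682 to 909 CPM in sham, and the mean over days did not pass (2.54 ± 0.57, edgeR adjusted p = 0.066). Pfkl, a glycolytic enzyme gene, was the only called gene of 17 tested in the hypoxia and glycolysis list, with 16 of 17 values positive. These are means over days. The summed level of the list was 2241 to 2455 CPM in sham and 10230, 2396 and 3311 CPM in LT. It was thus highest at LT day 1, the sample of 24 members, and within sham at LT day 3. The stress factor gene Ddit3 fell by 1.26.

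Other genes among the 10 highest included ones of mesothelium and other cells. Wt1, a transcription factor of mesothelium and mesenchyme, had 0, 6.11 and 6.70 CPM in sham and 45.9, 61.9 and 159 CPM in LT (3.67 ± 0.32, edgeR adjusted p = 0.00299), and the mesothelial gene Upk1b rose by 4.02. Slpi, a secreted antiprotease of mucosal and mesothelial surfaces, rose by 3.68. Without the members that held a UMI of Msln, Upk1b, Upk3b or Lrrn4, 53 genes were called in place of 180 and 52 of them were shared. Of 42 named genes that could still be tested 18 lost their call, and Cfb, Sectm1a, Upk1b, Vegfd, Vipr2 and Wnt4 did not reach the filter on low counts. Slpi was then at 2.23 (edgeR adjusted p = 0.16), Wt1 at 2.75 (edgeR adjusted p = 0.056), Lcn2 at 4.36 (edgeR adjusted p = 0.081) and C3 at 4.18 (edgeR adjusted p = 0.098). Col4a1, Ltbp4, Reck, Itga5, Plod2, P4ha2, Rspo1, Pdgfrl, Cx3cl1, Osmr, Hr and Ddit3 also lost it, at edgeR adjusted p of 0.054 to 0.085 and with log2 fold changes of the same direction. These were 1.41 for Col4a1, 1.75 for Itga5, 1.77 for Osmr, -2.46 for Cx3cl1, -1.37 for Reck, -1.42 for Ltbp4, -2.68 for Hr, -1.17 for Ddit3, 1.10 for Plod2, -0.83 for P4ha2, 2.86 for Rspo1 and -1.54 for Pdgfrl, so that the first 4 were larger than with all members and the others smaller. Sulf1, Mgst1, Igf1, Sod2, Pi16, Sparcl1, Cd34 and Ptch1 kept their calls. The pericyte marker Rgs5 rose by 4.17, but a single cell held 67.3%, 87.5% and 43.8% of its UMIs in the LT samples. Of the neutrophil markers, S100a9 rose by 2.90, and the part of neutrophil RNA in it was not tested. A2m, Steap1 and Sectm1a were the other 3 of the 10 highest.

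The LT samples held 24, 43 and 50 members, and the number of calls changed with the samples fitted. Without the LT day 7 sample 10 genes were called, 9 of them among the 180, and without the LT day 1 sample 74, of which 54 were among the 180. These fits tested 7891 and 7924 genes. There were 45 and 59 called without sham 2 or sham 3 and 414 without sham 1, the sham sample with 54 members. With only the sham and LT samples 5 genes were called.

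The comparison of raised flow with LT asks whether raising arterial flow shifted the members. No gene passed: 0 of 5355 were called (0.0%), 418 had an unadjusted p under 0.05, and DESeq2 on the same design called 30. Leaving out sham 1 gave 7 calls, LT day 3 gave 5, and sham 2 or sham 3 gave 1 each. The following genes had the smallest p and did not pass in edgeR. Mgst1 had 180, 148 and 289 CPM in LT and 28.8, 29.5 and 49.5 CPM in raised flow at days 1, 3 and 7 (log2 difference -2.51 ± 0.41, edgeR adjusted p = 0.21). Ptch1 had 30.6, 24.3 and 39.0 CPM in LT and 117, 82.4 and 134 CPM in raised flow (1.82 ± 0.32, edgeR adjusted p = 0.21). Crispld2, a gene of a secreted protein, had 248, 144 and 153 CPM in LT and 691, 442 and 377 CPM in raised flow (1.47 ± 0.23, edgeR adjusted p = 0.21). For these genes the arms did not overlap, but the spread over the model's 4 residual degrees of freedom did not set them apart after adjustment.

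The chemokine gene Cx3cl1 had 3.25 to 11.5 CPM in LT and 26.8 to 43.1 CPM in raised flow (2.62 ± 0.48, edgeR adjusted p = 0.21). Its LT levels rest on very few UMIs. Ckb, creatine kinase B, had a log2 difference of 1.04, the bone sialoprotein gene Ibsp 2.28, the interferon regulatory factor gene Irf8 2.73, the acid phosphatase gene Acp5 -3.05 and Pdcd4 -1.06. AABR07072853.5 had the smallest p, at 3.49 ± 0.39 with an edgeR adjusted p of 0.054. It passed with free RNA subtracted (3.53, edgeR adjusted p = 0.042). The controls of this comparison are the LT samples of the previous one, so the values of LT enter both. Among the lists, 15 of 17 hypoxia and glycolysis genes were lower in raised flow with a median of -0.56, and 15 of 16 genes of MHC and antigen processing were higher with a median of 0.53, against a median of -0.01 over all genes and without a call. The days differed, and the summed level of the hypoxia list was 10230, 2396 and 3311 CPM in LT and 3000, 2735 and 2486 CPM in raised flow at days 1, 3 and 7. That of the MHC list was 3276, 6761 and 24440 CPM in LT and 3733, 17470 and 22090 CPM in raised flow. Raised flow was thus above LT at day 3 for the hypoxia list and below LT at day 7 for the MHC list.

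Day 7 was compared with day 1 over both arms, 2 samples against 2 within the same fit. In it 122 genes rose (2.28%) and 32 fell (0.598%) at an adjusted p under 0.05, 1190 had an unadjusted p under 0.05, and DESeq2 called 517. Values are given below in LT and then in raised flow, and LT levels of a few CPM rest on very few UMIs. Of the 122 risers 15 (12.3%) were in the lists of MHC and antigen processing or interferon-stimulated genes.

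B2m, the light chain of MHC class I, had 1587 and 1960 CPM at day 1 and 14215 and 12315 CPM at day 7 (log2 fold change 2.95 ± 0.35, edgeR adjusted p = 0.00627). It had a UMI in all 50 and all 62 members of day 7, and the free RNA estimated for it was 366 and 850 CPM. The class I heavy chain gene RT1-A2 had 115 and 103 CPM at day 1 and 1015 and 1152 CPM at day 7 (3.33 ± 0.26, edgeR adjusted p = 0.000628). Psmb9, a subunit of the immunoproteasome, had 61.2 and 91.6 CPM at day 1 and 748 and 750 CPM at day 7, and RT1-A1, Psmb8 and the peptide transporter genes Tap1 and Tap2 also rose. The sham samples stood at 2768 to 3169 CPM for B2m, above both day 1 samples and below both day 7 samples. In the MHC and antigen processing list 10 of 16 tested genes rose, none fell, all 16 values were positive and the median was 2.95, against 0.01 over all genes. Over all genes tested 2.28% rose.

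MHC class II genes rose as well, and a part of their day 7 level was estimated as free RNA. Cd74, the invariant chain, had 15.3 and 11.04 CPM at day 1 and 888 and 623 CPM at day 7 (6.19 ± 0.67, edgeR adjusted p = 0.00573). The free RNA estimated for it at day 7 was 150 CPM in LT and 418 CPM in raised flow. RT1-Da had 3.82 and 6.99 CPM at day 1 and 468 and 553 CPM at day 7 (6.57 ± 0.40, edgeR adjusted p = 0.000304), with 183 and 475 CPM estimated as free RNA. RT1-Db1 rose by 6.18 on the log2 scale, to 273 and 489 CPM at day 7, with 117 and 351 CPM estimated as free RNA, and 64.6% of its UMIs at raised flow day 7 came from a single cell. With free RNA subtracted RT1-Da kept its call (8.77, edgeR adjusted p = 0.021), and Cd74 and RT1-Db1 did not reach the filter on low counts. The macrophage markers Lyz2, C1qa and C1qc rose in this comparison too, by 3.97, 3.88 and 3.72, so 3 of 6 tested genes of that list moved with the class II genes, and their part in the result was not tested.

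The summed level of the interferon-stimulated list was 1277, 2310 and 7620 CPM in LT at days 1, 3 and 7 and 971 (day 1), 6431 (day 3) and 3315 CPM (day 7) in raised flow, where day 3 was the highest. Cxcl9, a T cell chemokine induced by interferon-gamma, had 3.82 and 0.42 CPM at day 1 and 498 and 816 CPM at day 7 (11.04 ± 1.69, edgeR adjusted p = 0.029). At day 3 it stood at 130 CPM in LT, where a single cell held 83.0% of its UMIs, and at 1359 CPM in raised flow. Ubd, a ubiquitin-like modifier, had 1 UMI in all at day 1 and 270 at day 7, a ratio of 2528 with a counting interval of 450 to 100200. Its fitted log2 fold change was 12.00, and with free RNA subtracted it was 14.40 and not called (edgeR adjusted p = 0.066). Igtp, Irf7, Gbp5, Irf1 and Bst2 rose by 4.82, 4.15, 3.22, 2.80 and 2.56. In this list 5 of 17 tested genes rose, against 2.28% of all genes tested, all 17 values were positive, and the median was 3.62. Tnfsf10, which encodes the death ligand TRAIL, had 3 UMIs at day 1 and 31 at day 7. These counts are not scaled for depth. The summed UMIs of members were 275646 and 6938449 at day 1 and 319829 and 466505 at day 7. With free RNA subtracted the log2 fold change of Tnfsf10 was 7.08 (edgeR adjusted p = 0.017). RGD1305184 and MGC108823 were further genes among the 10 highest.

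**Figure D4:**
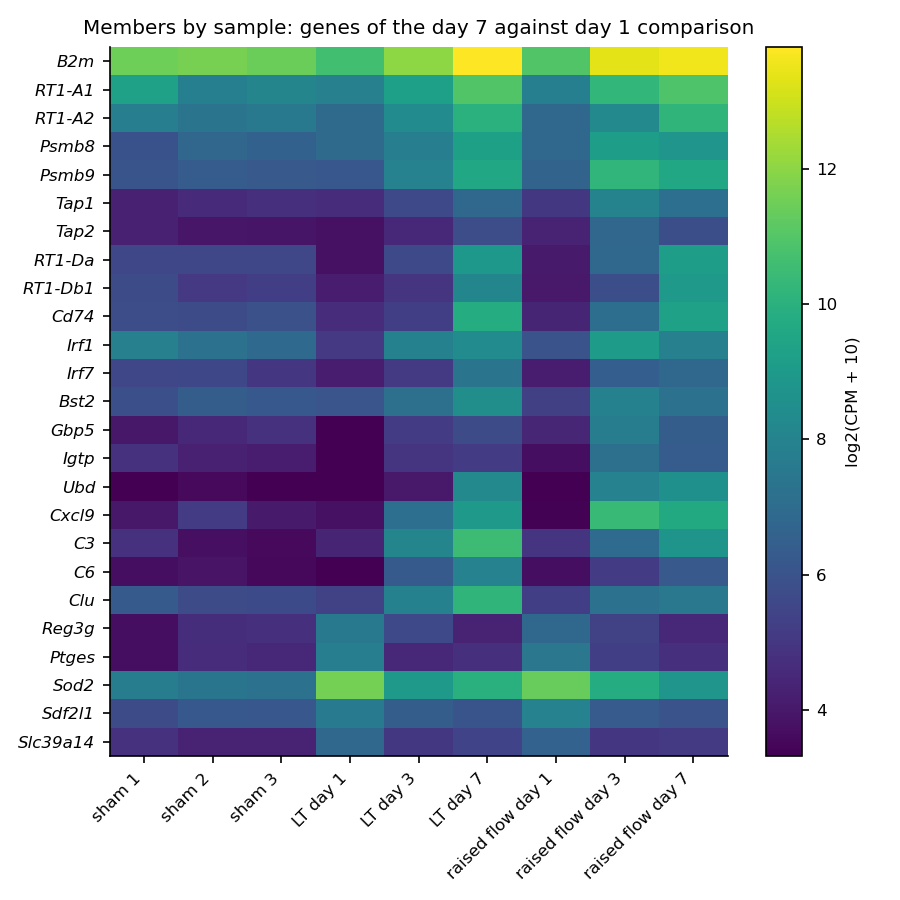
Levels of 25 genes in the summed UMIs of members, in rows, by sample, in columns, with color giving log2(CPM + 10). The antigen presentation and interferon-stimulated rows are lighter at day 7 than at day 1 in both arms, and the bottom 5 rows, from Reg3g to Slc39a14, are lightest at day 1.

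Of all genes tested 2.28% rose from day 1 to day 7. In the elastic fiber list 3 of 17 tested genes rose, in the BMP, Wnt and Hedgehog list 2 of 22, in the TGF-beta list 1 of 21 and in the myofibroblast list 1 of 23. None passed of 6 fibrillar collagens, 14 basement membrane genes, 3 small leucine-rich proteoglycans and 14 metalloproteinases and inhibitors. Mfap2, a microfibril glycoprotein gene, had 34.4 and 57.1 CPM at day 1, 283 and 216 CPM at day 7, and 237 to 249 CPM in sham (2.30 ± 0.29, edgeR adjusted p = 0.00874). The Wnt antagonist gene Sfrp1 had 256 and 186 CPM at day 1, 693 and 783 CPM at day 7, and 722 to 1106 CPM in sham. Tgfb3 (1.86), the scavenger receptor gene Ackr3 (1.59), Clec3b (1.98), the elastin crosslinking enzyme gene Loxl1 (1.29) and the immediate early gene Atf3 (2.87) also rose. Day 7 lay above sham for Thbs2, a thrombospondin gene, with 7.65 and 8.66 CPM at day 1, 299 and 120 CPM at day 7 and 21.5 to 64.4 CPM in sham (4.10 ± 0.48). Cilp, a cartilage matrix gene, had 3.82 and 0.56 CPM at day 1, 107 and 126 CPM at day 7 and 27.0 to 49.2 CPM in sham (7.37 ± 0.59, edgeR adjusted p = 0.000628). Vcam1 (4.33), Fbln2 (3.55), the hyaluronan synthase gene Has1 (2.08), Klf4 (1.17) and Adm (1.81) rose too. C3, C6 and Clu rose by 5.10, 4.90 and 3.79, which made 3 of 12 complement genes. C3 was at 5.25 with free RNA subtracted (edgeR adjusted p = 0.089) and at 4.14 without the members that held mesothelial UMIs (edgeR adjusted p = 0.087), and was called in neither.

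**Figure D5:**
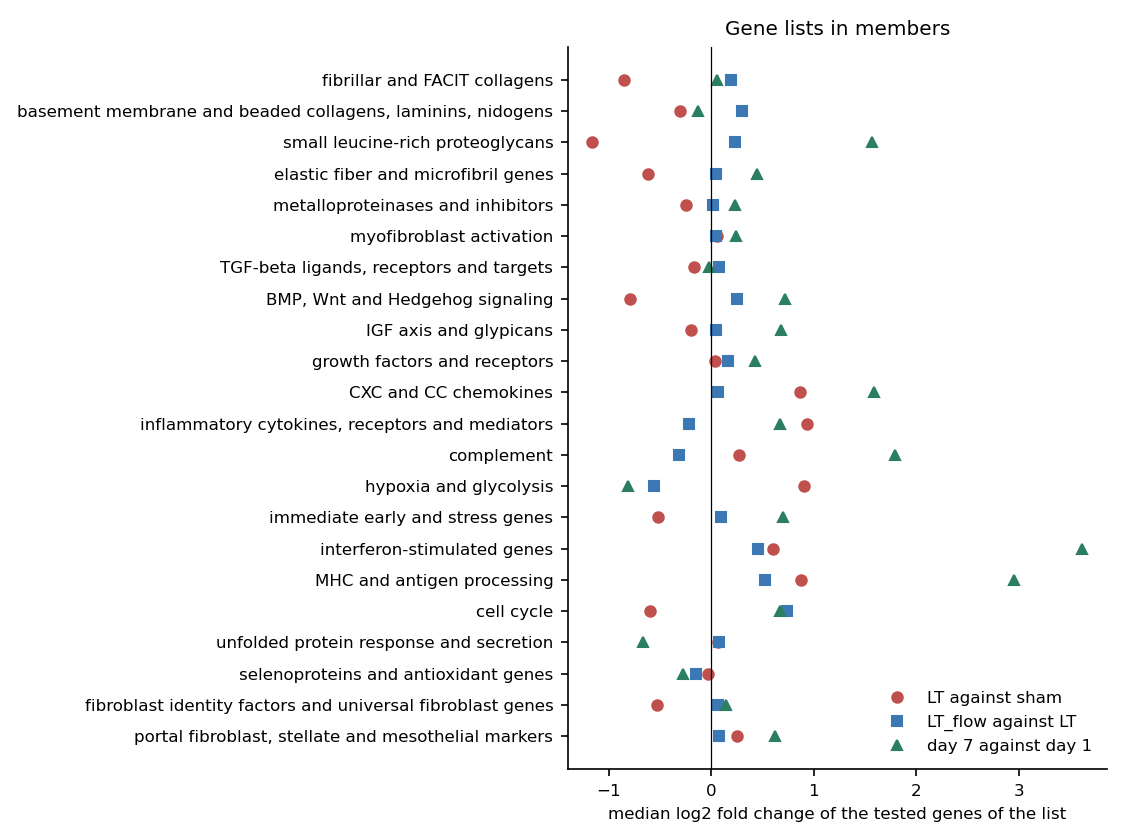
Median log2 fold change of the tested genes of each list, without the marker lists of other cell types, in the 3 comparisons (circles, LT against sham; squares, raised flow against LT; triangles, day 7 against day 1). The interferon-stimulated (3.62) and MHC (2.95) lists stand farthest to the right at day 7 against day 1, and the macrophage and monocyte markers, not drawn, had a median of 3.43 over 6 tested genes; list sizes run from 3 to 30 tested genes.

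In the same comparison 32 genes fell against 122 that rose, a balance that rested on the raised flow day 1 sample, since 27 rose and 27 fell without it. Ptges, which makes prostaglandin E2, had 214 and 168 CPM at day 1 and 16.3 and 16.5 CPM at day 7 (-3.51 ± 0.48, edgeR adjusted p = 0.012), against 3.07 to 15.1 CPM in sham. Sod2 fell by 2.03 from its day 1 level. Slc39a14, a zinc and iron transporter gene, fell by 1.76, the endoplasmic reticulum chaperone cofactor gene Sdf2l1 by 1.98, and LOC691143, Plxdc1, Rcl1, Gng8 and Polr1c by 1.74 to 2.74. Without the members that held mesothelial UMIs, Rcl1 (-1.87, edgeR adjusted p = 0.088) and Polr1c (-1.99, edgeR adjusted p = 0.073) were not called. Reg3g, an antibacterial lectin of epithelium, fell by 3.53, and its 180 and 104 CPM at day 1 stood beside 55.1 and 80.2 CPM of estimated free RNA. With free RNA subtracted its fitted log2 fold change was -11.27 and not called (edgeR adjusted p = 0.083). The LT day 1 sample held 24 members, and without it 37 genes were called in this comparison. Without the LT day 7 sample 30 were called, without the raised flow day 1 or day 7 sample 54 and 100, without sham 2 78, and without sham 1 398.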

How the data were processed

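Bile duct cells were measured by 10x Genomics scRNA-seq in 9 samples with 20 libraries. The deposited values are raw UMI counts for each gene in each barcode, unfiltered for empty droplets. Cell Ranger 4 is named in the headers of the matrices, the submitters' processing notes name Cell Ranger 5.0.1 and Seurat 3.2.0, and the genome build is not given in the sources used here, so no coordinates or sequences are printed. A further raised flow day 3 library was not analysed here.

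Counts were added over features of the same symbol (23836 symbols). Barcodes with 400 genes or fewer, 6000 genes or more, at least 25% of UMIs from mitochondrial genes or at least 3% from hemoglobin genes were left out, and 150284 of 161086 barcodes with more than 400 genes were kept. Doublets stayed in the main values, and an alternative left out cells above the 92.5th percentile of a simulated-doublet score. The members and gene lists were chosen with earlier results of these data known.

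Member UMIs were summed per sample (275646 to 19844013 UMIs per sample in the genes that passed the filter on low counts). The test was edgeR 4.0.16 (glmQLFit, glmQLFTest, TMM, filterByExpr, Benjamini-Hochberg, threshold 0.05) with time class (sham, day 1, 3, 7) plus arm. Rule genes stayed in the fit and out of the counts. DESeq2 1.42.0 was an alternative. Replicate numbers do not pair samples across groups. Day is shared between the transplant arms, and a fit with day as block was an alternative. Scripts were tested on simulated data. Shares were compared by exact permutation tests. Ratios between kinds of fibroblast used log2(CPM + 10).

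Genes were named by rule: for each comparison, called genes of at least 20 CPM in a group and without overlap of groups, the 10 highest and 10 lowest by fold change, or the 10 smallest p where fewer than 10 were called. From each list the 2 highest and 2 lowest called genes in LT against sham were added, with Pdgfra, Postn, Acta2, Timp1, Cxcl12, Il6, Ccl2, C3 and Igf1. For members against other fibroblasts the 15 highest and 10 lowest genes of the same sign in every sample were named, and for Ogn-only against Gpc3-only members the 8 highest and 8 lowest. Genes named from lists in day 7 against day 1, the markers S100a9, Lyz2, C1qa and C1qc, further called genes of a list (Pdpn, C6, Clu, Twist2), and genes named against each other kind of fibroblast were chosen after their values were seen. Not all genes that these rules select are reported here.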

Additional observations from a re-analysis of the deposited data

Results flagged for a closer look

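Acp5, an acid phosphatase gene, was 24.72 CPM above sham in LT and 12 CPM below it in raised flow (a difference of -12 CPM). In edgeR the difference between the arms was -3.05 on the log2 scale and did not pass (adjusted p = 0.21). It was picked out because all LT samples lay above and all raised flow samples below the sham samples.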

How the results depend on the processing

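The share of fibroblasts that were members stayed lower in LT than in sham under every alternative run. As a share of all cells, a different base, the means were 16.5% in sham (samples of 2.20% to 30.3%) and 0.283% in LT. That difference of -16.2 points cannot be set beside the points for the share of fibroblasts. The difference in the share of fibroblasts moved to -44.0 points when Ogn and Gpc3 had to reach 2 times each other sum. This alternative was added after seeing the data. Leaving out 1 library of a transplant sample, also added after seeing the data, gave -59.9 to -55.6 for LT against sham and 4.36 to 8.67 for raised flow against LT. Leaving out 1 sample gave -64.3 to -53.5 for LT against sham and 2.99 to 10.4 for raised flow against LT.

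Counts of called genes depended on the settings, and the cause was not tested. For LT against sham (180), raised flow against LT (0) and day 7 against day 1 (154), DESeq2 called 420, 30 and 517, and no filter on low counts called 814, 230 and 803. Leaving out 1 sample gave 10 to 414, 0 to 7 and 30 to 398. With each library of at least 20 members as its own sample the counts were 54, 0 and 70, although this left LT day 1 out. LT against sham gave 8 calls in 3 groups without the day term and 5 with only sham and LT. Raised flow against LT gave 1 call with free RNA subtracted and 2 with day as the replicate block, in a fit of the 6 transplant samples. Alternatives added after seeing the data called 114 and 23 genes under the stricter gene sum rule and 53 and 88 without mesothelial UMIs, in LT against sham and day 7 against day 1. Among named genes called in LT against sham, 308 of 968 alternative values lost the call and none turned direction, and 94 of 367 lost it in day 7 against day 1. Only 1 of these 48 genes and 2 of 20 kept the call under every alternative that gave a value.

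The reported values that turned direction were all of genes without a call in LT against sham. With total UMIs in place of TMM they were -0.045 for Pdgfra and -0.052 for Cxcl12, and without the filter -0.020 and -0.021. With libraries as samples Pdgfra was -0.23. Leaving out 1 sample gave -0.023 to 0.106 for Pdgfra (-0.0069 without LT day 3), -0.158 to 0.185 for Cxcl12 (-0.118 without sham 3) and -0.112 to 0.948 for Ccl2. Cxcl12 was -0.036 with at least 3 UMIs of Ogn and Gpc3. With 24 to 62 members in 4 of the 6 transplant samples and 54 in a sham sample, low genes were covered by few UMIs.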
